A study of Mus musculus with 5 samples.

Results

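The nuclear-encoded subunits of the respiratory chain were followed in cultured neural precursor cells of the adult mouse brain. Members were taken by gene name: genes named as Nduf subunits (A, B, C, S or V series), Sdha to Sdhd, Uqcr, Cox4 to Cox8 or Atp5, leaving out names with "-ps" or "Gm". This gave 85 of the 46078 genes in the abundance tables, of which 37 belonged by name to complex I, 4 to complex II, 9 to complex III, 18 to complex IV and 17 to complex V. The 85 genes carried 84 symbols, because Uqcrc1 was listed a second time on a patch scaffold, where it had no signal.

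The chain sits in the inner mitochondrial membrane. Complexes I and II pass electrons from NADH and succinate to ubiquinone, complex III passes them on to cytochrome c, complex IV hands them to oxygen, and complex V (ATP synthase) uses the proton gradient that complexes I, III and IV build. Complex II is encoded wholly in the nucleus. The other complexes combine nuclear-encoded subunits with a few made inside the mitochondrion from its own genome, so both genomes have to supply them together. Neural stem cells are known for a glycolytic metabolism, and oxidative phosphorylation gains weight as they differentiate.

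The data were RNA-seq libraries from 5 cultures of neural precursor cells, which the study's methods place in the subventricular zone, from C57BL/6 mice with the genotype "No mutation", labelled as female and 5 to 8 weeks old. All cultures received phosphate-buffered saline as a sham exposure and were collected 1 h later (replicates 1 and 2) or 8 h later (replicates 13, 14 and 15). The cells were cultured on poly-D-lysine. The study's methods give an older age for the mice of such cultures and count each animal as a replicate. Levels were TPM, each gene's share of the transcripts of a library after scaling for length, which can be compared between genes.

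The libraries fell into 2 sets that did not follow time alone. Library identifiers in the labels formed 2 series, with both 1 h libraries and 8 h replicate 14 in series 1 and 8 h replicates 13 and 15 in series 2. Neither the labels nor the methods say what these series mean. In the 3 libraries of series 1, Xist, the RNA that silences an X chromosome in female cells, was at most 0.0611 TPM and transcripts of the Y chromosome (Ddx3y, Eif2s3y, Kdm5d, Uty) together reached 137.6 to 180.9 TPM, which goes against their label of female. In series 2, Xist was at 165 and 200 TPM and the Y-linked sum did not exceed 0.0253 TPM. For replicates 13 and 15, time, series and this difference cannot be told apart, so results are also given without replicate 14 and for series 1 alone. All 9 neural stem and precursor markers checked (Nes, Sox2, Slc1a3 and others) averaged at least 1 TPM. None of 4 microglial markers did, and Ckm, which defines muscle, was at 0.

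A partial count table was also deposited, with 7599 genes and 58 of the 85 members. Its totals were 13988166 to 18572154 reads per column. The 1 h columns matched their own abundance tables, with 78.0% of 6854 genes within 0.1 log2 units in each. The column labelled 8 h replicate 13 matched the abundance table of replicate 14 (78.3%), and the column of replicate 15 matched that of replicate 13 (76.9%). The column of replicate 14 matched none it was compared with, reaching at most 38.2%, for 1 h replicate 2. Columns at 8 h were not compared with 1 h replicate 1, which served as their reference. For the abundance table of replicate 15, the best column reached 40.9%. Counts are therefore used below only as a second reading with columns grouped by their labels. Whether the column of replicate 14 belongs to the 8 h group could not be checked.

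The members were highly expressed as a class. Of the 78 members with a mean of at least 1 TPM, 64 (82.1%) ranked in the top 10% of the 13870 genes that passed this filter. Together, all members took 2.53 to 2.86% of the TPM in a library. The order of the members by level was nearly the same in every library, with Spearman correlations of 0.978 to 0.992 between pairs of libraries over the 78 members, given as a description because the libraries share the gene set and its length scaling. The other 7 genes did not reach the filter, and 4 of them were listed at 0 in every library.

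Summed by complex, ATP synthase stood highest and complex II lowest in every library. Complex I summed to 7190 and 7810 TPM at 1 h and to 7829, 7054 and 7414 TPM at 8 h (replicates 13, 14 and 15). Complex II summed to 1053 and 1059 TPM at 1 h and to 1212, 1050 and 1125 TPM at 8 h. The 1 h values lay between the 8 h values in both. Complex III gave 2876 and 2994 TPM at 1 h, beside 3196, 2765 and 2928 TPM at 8 h. Complex IV gave 5706 and 6039 TPM at 1 h, beside 6245, 5401 and 6154 TPM at 8 h. Complex V gave 9515 TPM in both 1 h libraries, beside 10115, 9062 and 9709 TPM at 8 h. Replicate 14 was the lowest and replicate 13 the highest library for all 5 complexes, and the times overlapped for each of them. In bulk RNA, a lower level from fewer cells of a type and from less RNA per cell cannot be told apart. The mean at 8 h ran from 99.1% of the 1 h mean for complex I to 106.9% for complex II, with the other complexes between these. Against the 1 h mean, replicate 14 alone stood at 92.0 to 99.5% over the complexes, and replicates 13 and 15 together at 101.6 to 110.6%. Mitochondrially encoded RNA took 10.7 to 11.1% of the TPM in series 1, beside 6.23 and 6.30% in series 2. TPM are shares, so this bears on all other levels. Rescaled without mitochondrially encoded genes, the log2 ratios of the sums, 8 h over 1 h, were -0.0659, 0.0431, -0.0395, -0.039 and -0.0359 for complexes I to V. With these genes they were -0.013, 0.0964, 0.0138, 0.0148 and 0.0172, so the sign changed for complexes III, IV and V.

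**Figure D1:**
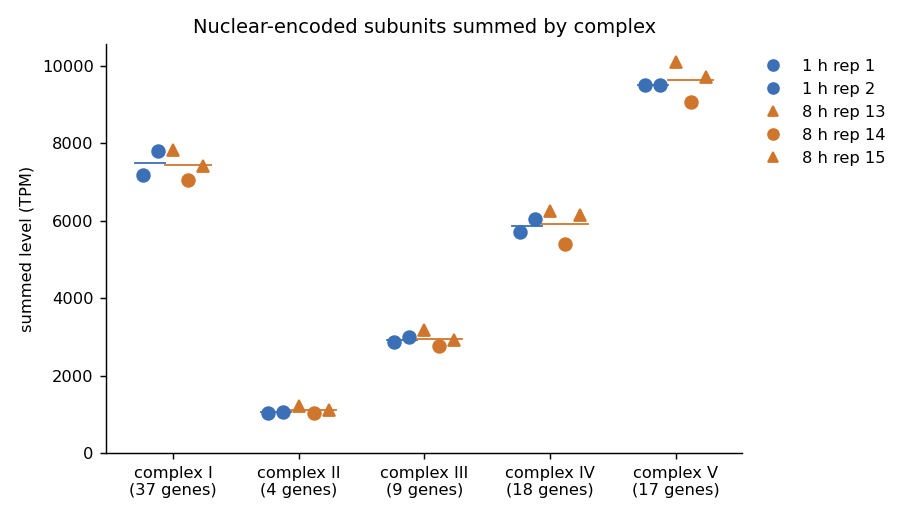
Summed TPM of the nuclear-encoded members of each complex, with 1 symbol per library (blue, 1 h; orange, 8 h; circles, identifier series 1; triangles, identifier series 2) and a line at each time's mean. The 8 h libraries lie on both sides of the 1 h libraries for every complex, with replicate 14 lowest and replicate 13 highest.

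The comparison of 8 h with 1 h asks whether the sham-exposed cells changed with time in culture. No member passed the threshold, which asked for a Benjamini-Hochberg adjusted p at most 0.05 in limma on log2(TPM + 1) and more than 1 log2 unit of change in either direction: 0 of 78, where 6 of all 13870 genes were called, or 0.0433%. None of the 78 had an unadjusted p under 0.05 either, against 12.3% of all genes. The members' median log2 fold change was 0.0046, beside 0.10 over all genes, and the median of its size was 0.076, beside 0.188. Median-ratio scaling, which moved the median of all genes by -0.11, put the members' median at -0.10, so its sign depended on the scaling while its distance from all genes did not. Of the 78 members, 77 (98.7%) had an absolute log2 fold change under 0.3, as did 69.6% of all genes. The groups did not overlap for 11 members, of which 5 were higher and 6 lower in every 8 h library, against shares of 23.7% and 9.43% of all genes. Members were far above the median gene in level, and the spread of a gene's log2 values depends on its level. The median standard deviation of a member over the 5 libraries was 0.125 on the log2 scale, beside 0.20 over all genes. Over the counts, with columns grouped by label, edgeR (quasi-likelihood test) called 0 of 57 members and 0% of all genes counted. None of these members had an unadjusted p under 0.05 (edgeR), against 2.62% of all genes counted. DESeq2 (0 of 58) and limma-voom (0 of 57) also called none and gave none an unadjusted p under 0.05, a mark reached by 2.99% and 2.35% of all genes in these tests.

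**Figure D2:**
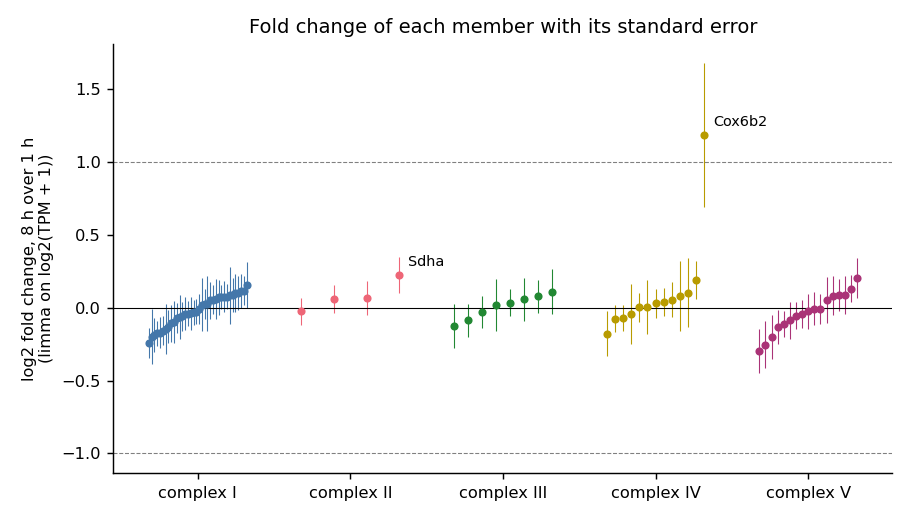
Log2 fold change of 8 h over 1 h for each of the 78 members tested, ordered within its complex, with bars for the standard error from limma and dashed lines at the fold threshold. All members but Cox6b2 lie within 0.3 of 0.

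Complex I takes electrons from NADH. Log2 fold changes of its 36 tested members ran from -0.24 to 0.15, around a median of -0.02. Ndufa4 was the most abundant member under this name, although it is now regarded as a subunit of complex IV. It stood at 959 and 1027 TPM at 1 h and at 1042, 996 and 928 TPM at 8 h, so that the times overlapped (log2 fold change -0.01 ± 0.10, SE). Ndufc2, a small membrane-arm subunit, came next, with 458 and 526 TPM at 1 h and 561, 407 and 618 TPM at 8 h. Its replicate 14 was the lowest of the 5 libraries and its replicate 15 the highest (0.08 ± 0.19).

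Among tested complex I members, 2 were higher and 3 lower in every 8 h library, beside 23.7% and 9.43% of all genes. Ndufb11, Ndufb2 and Ndufv3 were among the 5 members with the largest fold change in their direction over the whole set. Ndufb11, an X-linked membrane-arm subunit, was measured at 233 and 248 TPM at 1 h and 208, 217 and 186 TPM at 8 h. All 8 h values were below both 1 h values, with a log2 fold change of -0.24 ± 0.10 and an adjusted p of 0.408 (limma). Ndufb2 had 43.0 and 51.0 TPM at 1 h, beside 37.2, 35.2 and 51.2 TPM at 8 h, where replicate 15 lay above both 1 h libraries (-0.20 ± 0.19, limma adjusted p = 0.614). Ndufv3, a small subunit of the flavoprotein module, had 134 and 140 TPM at 1 h, beside 174, 125 and 164 TPM at 8 h. Replicates 13 and 15 were its highest libraries and replicate 14 the lowest (0.15 ± 0.16, limma adjusted p = 0.641), and within series 1 its log2 fold change was -0.14. Ndufb9 and Ndufb3, membrane-arm subunits picked after their values were seen, were also lower in every 8 h library. Ndufb9 stood at 319 and 338 TPM at 1 h and 288, 298 and 288 TPM at 8 h (-0.17 ± 0.09, limma adjusted p = 0.433). Ndufb3 stood at 124 and 122 TPM, then 111, 119 and 102.2 TPM (-0.16 ± 0.10, limma adjusted p = 0.498). The 2 members higher in every 8 h library were Ndufs1 and Ndufb10, also picked after their values were seen. Ndufs1 stood at 168 and 162 TPM, then 169, 175 and 177 TPM (0.08 ± 0.08, limma adjusted p = 0.661). Ndufb10 stood at 161 and 163 TPM, then 170, 166 and 175 TPM (0.07 ± 0.08, limma adjusted p = 0.667). The 3 X-linked members, Ndufa1, Ndufb11 and Cox7b, summed to 718 and 777 TPM at 1 h and to 702, 723 and 645 TPM at 8 h, with the lowest sums in the 2 libraries that held Xist. Whether the difference in Xist had a part in this was not tested.

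Complex II (succinate dehydrogenase) also works in the tricarboxylic acid cycle, and all 4 of its genes were tested. Sdha, the flavoprotein that oxidises succinate, was at 342 and 338 TPM at 1 h and at 427, 344 and 427 TPM at 8 h. Every 8 h library was above both 1 h libraries, with replicate 14 only just above the nearer of them (0.22 ± 0.13, limma adjusted p = 0.465). Without replicate 14, Sdha had a log2 fold change of 0.33 and an adjusted p of 0.0321, under the p threshold and short of the fold threshold. In that fit, 19.9% of all genes had an adjusted p at most 0.05. Its log2 fold change in series 1 alone was 0.02. Sdhb, the iron-sulfur subunit, was at 307 and 299 TPM at 1 h and 316, 297 and 282 TPM at 8 h. The membrane anchor Sdhc stood at 128 and 140 TPM, then 157, 130 and 135 TPM. Sdhd, the other anchor, stood at 276 and 281 TPM, then 312, 279 and 281 TPM. The times overlapped for Sdhb, Sdhc and Sdhd, whose log2 fold changes were -0.03, 0.07 and 0.06.

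The 8 tested members of complex III had log2 fold changes of -0.13 to 0.11, with a median of 0.03. Uqcrh, the hinge protein beside cytochrome c1, was the most abundant, with 674 and 670 TPM at 1 h and 723, 649 and 606 TPM at 8 h. Uqcr10, a small subunit next to the Rieske protein, had 370 and 455 TPM at 1 h, beside 501, 384 and 454 TPM at 8 h. Both overlapped between times (-0.03 ± 0.11 and 0.11 ± 0.15). Uqcrfs1, the Rieske iron-sulfur protein itself, had 282 and 280 TPM at 1 h, beside 312, 263 and 318 TPM at 8 h, where replicate 14 was the lowest library (0.08 ± 0.11). It was picked after its values were seen.

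Complex IV (cytochrome c oxidase) is the complex with the most isoforms encoded by separate genes. Cox6b1, which faces the intermembrane space and helps join the enzyme into dimers, was its most abundant member, with 891 and 943 TPM at 1 h and 987, 936 and 887 TPM at 8 h. Cox8a, the ubiquitous form of the smallest subunit, had 693 and 881 TPM at 1 h, beside 928, 608 and 999.9 TPM at 8 h. Its 1 h libraries differed from each other by more than the means of the times did (0.08 ± 0.24). Cox5a, a subunit on the matrix side, had 401 and 408 TPM at 1 h, beside 474, 399 and 520 TPM at 8 h, with replicate 14 below both 1 h libraries (0.19 ± 0.13, limma adjusted p = 0.518). Its log2 fold change in series 1 alone was -0.02.

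Tissue-restricted isoforms of complex IV were at or near 0. Cox8b and Cox8c, the muscle-type and testis-type forms, and Cox7b2 were listed at 0 in every library. Cox4i2, an isoform known from lung and from low oxygen, was listed at 0.14 TPM in 1 h replicate 1 and at 0 elsewhere, so that Cox4i1 (599 to 671 TPM) took at least 99.98% of the pair. Ndufa4l2, the hypoxia-linked relative of Ndufa4, did not exceed 0.234 TPM. Cox6a2, the heart and muscle form, was at 0.286 and 1.48 TPM at 1 h and at 0, 1.06 and 0 TPM at 8 h, with 0 to 13 reads in the count table, beside 506 to 759 TPM for Cox6a1. Cox7a1, also a muscle form, was detected at 2.12 to 2.78 TPM in all 5 libraries, 0.328 to 0.452% of the sum with Cox7a2 (319 to 357 TPM) and Cox7a2l (281 to 356 TPM). Cox7a2l is not a subunit of the free enzyme but is known as a factor for supercomplexes of complexes III and IV. Whether it acted so in these cells was not measured.

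Cox6b2 was the exception among the isoforms. It encodes the testis-type form of COX6B and lies on mouse chromosome 7 (GRCm38, chr7:4751792-4753094, minus strand), while Cox6b1 lies at chr7:30616974-30626151 on the same strand. The coding sequences of both, from the GENCODE transcripts of this build, are shown to let the rare form be compared with the abundant one. Capitals mark the longest run of bases that the sequences share.
Cox6b1: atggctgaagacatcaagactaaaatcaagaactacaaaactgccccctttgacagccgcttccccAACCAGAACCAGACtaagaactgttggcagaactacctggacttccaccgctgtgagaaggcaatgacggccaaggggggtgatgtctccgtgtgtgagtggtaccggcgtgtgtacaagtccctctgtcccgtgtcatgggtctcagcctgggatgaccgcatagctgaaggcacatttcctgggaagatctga
Cox6b2: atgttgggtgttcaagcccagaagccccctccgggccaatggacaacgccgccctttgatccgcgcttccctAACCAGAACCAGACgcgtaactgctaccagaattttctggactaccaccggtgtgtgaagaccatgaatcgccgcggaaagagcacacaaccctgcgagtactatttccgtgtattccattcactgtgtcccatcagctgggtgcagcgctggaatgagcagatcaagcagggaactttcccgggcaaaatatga
They were 63.8% identical over 276 aligned columns, and the longest shared run was 14 bases. Over the whole transcripts these were taken from (618 and 553 bases) the longest shared run was also 14 bases. Reads counted for each gene were not examined.

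Cox6b2 was measured at 6.29 and 9.59 TPM at 1 h and at 31.0, 9.14 and 23.5 TPM at 8 h. Replicates 13 and 15 were above all other libraries, and replicate 14 lay between the 1 h values. The log2 fold change of 8 h over 1 h was 1.18 ± 0.49 (SE) with an adjusted p of 0.403 (limma), so the difference did not pass the test over all 5 libraries. In series 1 alone the log2 fold change was 0.21. Without replicate 14 it was 1.67 with an adjusted p of 0.0085, the one member called in that fit, where 4.1% of all genes were called. Cox6b2 made up 0.70 and 1.01% of the summed Cox6b1 and Cox6b2 TPM at 1 h and 3.04, 0.968 and 2.58% at 8 h. Markers of mature oligodendrocytes and of neurons were lowest in the same pair of libraries. The former summed to 35.5 and 69.1 TPM there, against 113 to 164 TPM in the others. The latter summed to 37.5 and 38.5 TPM, against 57.8 to 62.6 TPM. Neural stem and precursor markers summed highest in that pair, at 13969.9 and 15102.1 TPM against 11687.1 to 12292.5 TPM. The part of these markers in the result was not tested. The mean coverage behind the Cox6b2 values was 6.74 and 12.1 reads per base at 1 h and 39.6, 12.7 and 25.3 at 8 h. Cox6b2 was not in the count table. Cox6b1 itself varied by a factor of 1.11 between its lowest and highest library. Fam71e2, the next gene upstream on the same strand (from position 4753226 of chromosome 7), was chosen after its values were seen and did not exceed 0.0743 TPM in any library.

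**Figure D3:**
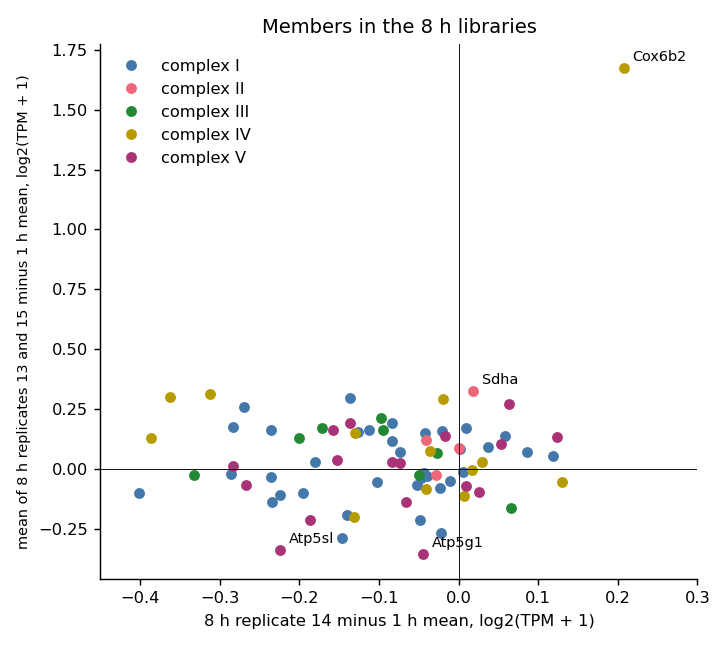
Each of the 78 members tested, by its difference from the 1 h mean in 8 h replicate 14 (x axis, identifier series 1) and in the mean of 8 h replicates 13 and 15 (y axis, identifier series 2), both on the log2(TPM + 1) scale and against the same 1 h libraries. Cox6b2 stands apart on the y axis at 1.67 and lies at 0.21 on the x axis.

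Complex V joins a catalytic head, F1, to a membrane rotor and stator. Atp5b, the catalytic beta subunit, was the most abundant member of the whole set, with 2070 and 2090 TPM at 1 h and 2344, 2055 and 2239 TPM at 8 h. Atp5a1, the alpha subunit, had 1269 and 1216 TPM at 1 h, beside 1316, 1172 and 1221 TPM at 8 h. Both overlapped between times (0.09 ± 0.11 and -0.01 ± 0.10). The 5 genes of the head and central stalk summed to 4454 and 4419 TPM at 1 h and to 4721, 4163 and 4599 TPM at 8 h, and their median log2 fold change was -0.02. Atp5o, which links the head to the stator, had 617 and 533 TPM at 1 h, beside 755, 599 and 635 TPM at 8 h, with replicate 14 between the 1 h values (0.20 ± 0.14, limma adjusted p = 0.512).

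Of the 17 members of complex V, 2 were higher and 2 lower (11.8% each) in every 8 h library, beside 23.7% and 9.43% of all genes. None passed the test. Atp5j2, a membrane subunit of the stator, had 230 and 309 TPM at 1 h, beside 248, 234 and 212 TPM at 8 h. Its log2 fold change was -0.20 ± 0.15 (limma adjusted p = 0.54) and became 0.0086 without 1 h replicate 2, the one library far above the rest. Atp5sl, which despite its name encodes a factor for complex I assembly, had 13.9 and 11.5 TPM at 1 h, beside 10.6, 10.7 and 9.07 TPM at 8 h. All 8 h values lay below both 1 h values (-0.30 ± 0.15, limma adjusted p = 0.439). Atp5h, a stator subunit, was the other member with all 8 h values lower, at 643 and 628 TPM, then 587, 607 and 567 TPM. Atp5s, an accessory coupling factor, was higher in every 8 h library, at 9.06 and 8.93 TPM, then 9.24, 9.37 and 10.3 TPM (log2 fold change 0.09). Atp5j, coupling factor 6 of the stator, was also higher in every 8 h library, at 381 and 383 TPM, then 396, 417 and 444 TPM (0.13 ± 0.09, limma adjusted p = 0.53). Atp5h, Atp5s and Atp5j were picked after their values were seen.

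The rotor ring of ATP synthase is built of one small protein, subunit c, that is encoded by Atp5g1, Atp5g2 and Atp5g3. The 3 precursors differ mainly in the leader that directs import into the mitochondrion. Their genes lie at chr11:96068852-96075670, chr15:102662864-102672352 and chr2:73908447-73911326 (GRCm38, all on the minus strand). The last 228 bases of their coding sequences (GENCODE, stop codon included) are shown because the mature ring protein comes from this stretch, with capitals at the 58 positions where the 3 genes are not all the same.
Atp5g1: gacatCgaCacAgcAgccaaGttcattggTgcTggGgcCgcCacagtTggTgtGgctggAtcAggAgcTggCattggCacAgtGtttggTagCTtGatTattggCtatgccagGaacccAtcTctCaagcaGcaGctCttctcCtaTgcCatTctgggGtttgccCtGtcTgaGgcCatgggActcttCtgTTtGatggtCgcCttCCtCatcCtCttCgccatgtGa
Atp5g2: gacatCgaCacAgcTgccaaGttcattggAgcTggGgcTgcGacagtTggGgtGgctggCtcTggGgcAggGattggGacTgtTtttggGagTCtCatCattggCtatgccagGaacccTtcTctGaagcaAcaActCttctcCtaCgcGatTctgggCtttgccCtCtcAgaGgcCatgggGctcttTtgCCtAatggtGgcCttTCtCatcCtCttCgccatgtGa
Atp5g3: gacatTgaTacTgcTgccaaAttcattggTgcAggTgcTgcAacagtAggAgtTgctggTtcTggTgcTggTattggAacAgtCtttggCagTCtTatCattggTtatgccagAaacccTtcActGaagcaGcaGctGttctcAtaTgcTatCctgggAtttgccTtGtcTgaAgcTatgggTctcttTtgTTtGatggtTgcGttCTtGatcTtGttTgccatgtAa
In this stretch Atp5g1 was 85.1% identical to Atp5g2 and 80.3% to Atp5g3, and Atp5g2 was 78.5% identical to Atp5g3. The leader-coding stretch before it was 57.3 to 57.8% identical between pairs. The longest run shared by any pair was 21 bases.

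Atp5g3 gave most of the subunit c transcripts. It was at 1068 and 1115 TPM at 1 h and at 1244, 992 and 1253 TPM at 8 h, which was 61.3, 59.5, 63.0, 59.2 and 67.1% of the 3 genes' sum in the same order of libraries. Atp5g2 took 23.8 to 26.7% of the sum. Atp5g1 was at 227 and 261 TPM at 1 h and at 213, 236 and 169 TPM at 8 h, where replicate 14 lay between the 1 h values and replicates 13 and 15 below them (-0.25 ± 0.16, limma adjusted p = 0.496). Its share was 13.0 and 14.0% at 1 h and 10.8, 14.1 and 9.06% at 8 h. The 2 libraries of series 2 thus had the lowest Atp5g1 shares and the highest Atp5g3 shares. No member of the 3 passed the test.

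**Figure D4:**
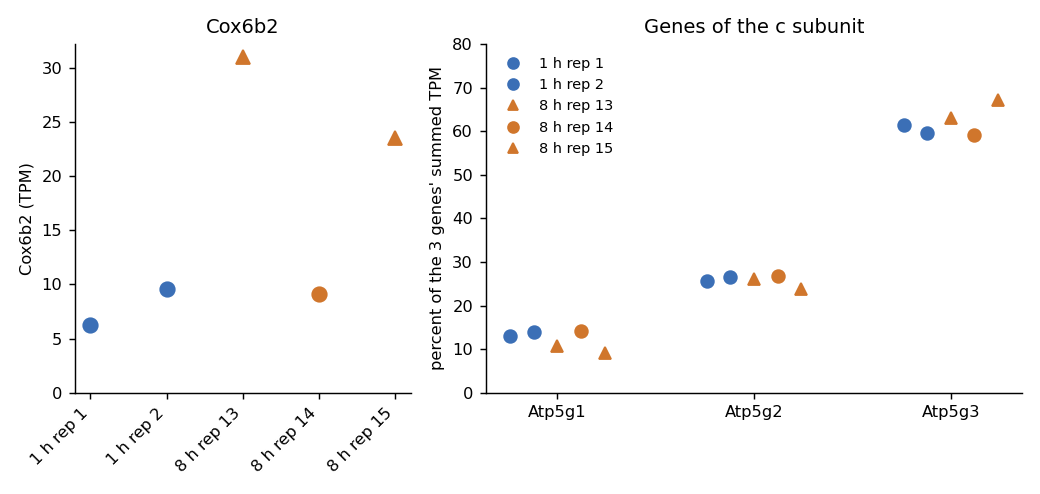
Left, Cox6b2 in TPM in each library. Right, the percent of the summed TPM of Atp5g1, Atp5g2 and Atp5g3 held by each gene, with 1 symbol per library (blue, 1 h; orange, 8 h; circles, identifier series 1; triangles, identifier series 2). Replicates 13 and 15 (triangles) have the highest Cox6b2, the lowest Atp5g1 shares and the highest Atp5g3 shares.

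Processed pseudogenes share long stretches with some members, which bears on how far their levels can be trusted. Of the 84 members with a transcript in GENCODE, 20 matched an annotated pseudogene transcript at 95% identity or more over at least 100 bases. For 8 of them, the matching pseudogenes in the tables summed to more than 5% of the member's own mean TPM. The largest shares were 78.8% for Ndufb4 (Gm3244 and another), 62.5% for Atp5g2 (Gm10175 and another) and 36.9% for Atp5l (Gm10221 and others). The methods do not say how reads were divided between such copies, so the levels of Ndufb4 (56.9 to 64.8 TPM), Atp5g2 (444 to 517 TPM) and Atp5l (513 to 574 TPM) are uncertain. The summed level of all these pseudogenes was 703 to 754 TPM in the 5 libraries. Cox6b2 had no such match.

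The members shared a small size. The median GENCODE transcript of the 78 tested members was 786 bases long, with a coding part of 420 bases, beside 2935 and 1382 bases over 11952 coding genes. Their median GC content was 52.0%, beside 50.4%. Across members, the difference between the 1 h replicates (replicate 2 minus replicate 1) had a Spearman correlation of 0.34 with GC content, beside 0.43 over all coding genes. For the difference between replicates 13 and 15 and the 1 h mean the values were 0.16 and -0.01, and for the difference between replicate 14 and the 1 h mean they were -0.30 and -0.21. With transcript length, the members' correlations for these 3 differences were -0.33, 0.22 and -0.04, beside -0.09, -0.06 and 0.05 over all coding genes. Genes are not independent replicates, and these correlations are descriptions.

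The mitochondrially encoded partners of these subunits differed between the series far more than the nuclear-encoded members did. The 7 mitochondrially encoded genes of complex I summed to 34007 and 34577 TPM at 1 h and to 17477, 30629 and 18291 TPM at 8 h. Per TPM of nuclear-encoded complex I members this was 4.73 and 4.43 at 1 h and 2.23, 4.34 and 2.47 at 8 h. Replicate 14 was close to the 1 h libraries, and replicates 13 and 15 were lowest. Cytochrome b, the one mitochondrially encoded subunit of complex III, gave ratios of 5.18 and 5.21 at 1 h and 1.97, 5.22 and 2.15 at 8 h. The 3 catalytic subunits of complex IV gave ratios of 5.81 and 5.65 at 1 h and 3.37, 6.47 and 3.38 at 8 h. The 2 membrane subunits of complex V gave ratios of 2.61 and 2.64 at 1 h and 1.62, 2.75 and 1.70 at 8 h. In all 4 complexes the ratio was lower in both libraries of series 2 than in the other 3. Nuclear-encoded members were assigned by name, with Ndufa4 under complex I and Cyc1 left out of complex III. The ratios therefore compare libraries and not complexes. Limma called none of the 13 mitochondrially encoded genes over all 5 libraries (3 had an unadjusted p under 0.05, all lower at 8 h, as had 2.82% of all genes) and 6 of them without replicate 14 (4.1% of all genes). Their median log2 fold change was -0.62 over all libraries, -0.85 without replicate 14 and -0.08 in series 1 alone. The libraries were selected for poly-A tails, and most of these transcripts carry short ones, so the ratio is one of recovered RNA.

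**Figure D5:**
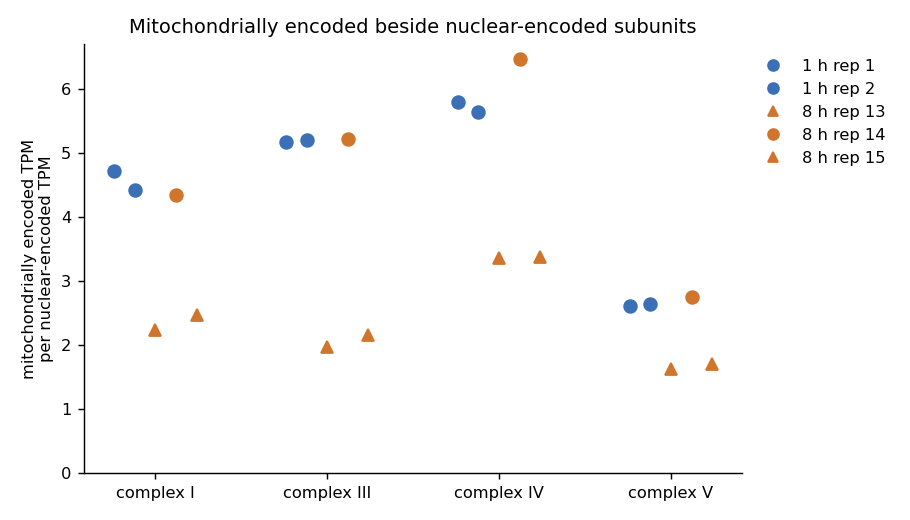
Summed TPM of the mitochondrially encoded subunits divided by that of the nuclear-encoded members of the same complex, with 1 symbol per library (blue, 1 h; orange, 8 h; circles, identifier series 1; triangles, identifier series 2). Replicates 13 and 15 lie lowest in all 4 complexes, at 1.62 to 3.38, and replicate 14 lies at 2.75 to 6.47.

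Without replicate 14, the series-2 libraries stood against the 1 h libraries, and 2 members had an adjusted p at most 0.05 (Cox6b2 and Sdha, both higher), as had 19.9% of all genes. Both libraries of series 2 were above all others for 18 of the 78 members (39.8% of all genes) and below all others for 11 (13.5% of all genes). In series 1 alone, with 1 library at 8 h whose spread is taken to be like that of the others, no member was called (all genes 0.0505%). With series as a term in the fit, none was called either (all genes 0.137%). Series 2 holds no 1 h library, so this fit gave the same log2 fold changes as series 1 alone and is no separate estimate.

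Further genes tied to the chain that the naming rule left out, most but not all of them subunits (Atpif1 and Nnt are not), were read in the same way. Of 7 such genes, 6 were tested and none was called or had an unadjusted p under 0.05 (limma), with a median log2 fold change of -0.03. In every 8 h library, 2 of the 6 were lower and 0 higher, beside 9.43% and 23.7% of all genes. Ndufab1, the acyl carrier protein of complex I, was at 139 and 136 TPM at 1 h and 124, 112 and 130 TPM at 8 h (-0.17 ± 0.10, limma adjusted p = 0.476). Cyc1, the cytochrome c1 of complex III, was at 384 and 408 TPM at 1 h and 473, 370 and 400 TPM at 8 h. Usmg5, a small subunit of ATP synthase, was at 754 and 803 TPM at 1 h and 669, 752 and 642 TPM at 8 h, with every 8 h value below both 1 h values (-0.18 ± 0.11, limma adjusted p = 0.481).

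Assembly factors put the subunits together but are not part of the finished complexes. Of 52 listed, 49 were tested and none was called, while 5 had an unadjusted p under 0.05 with higher values at 8 h and 2 with lower values (limma; all genes 9.52% and 2.82%). Their median log2 fold change was 0.14, against 0.10 over all genes. In the list of mobile carriers and ubiquinone synthesis, none of 14 tested genes was called or had an unadjusted p under 0.05. Cytochrome c (Cycs), which shuttles electrons from complex III to complex IV, was at 196 and 189 TPM at 1 h and 210, 204 and 201 TPM at 8 h (0.09 ± 0.08).

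Regulators of the genes for mitochondrial proteins were measured as a separate list. Of 15 tested, none was called (limma), and the median log2 fold change was 0.24. An unadjusted p under 0.05 (limma) was found for 4 with higher values at 8 h and 1 with lower values (all genes 9.52% and 2.82%). Gabpa, the DNA-binding part of NRF-2, was at 47.3 and 43.0 TPM at 1 h and 56.4, 51.2 and 61.6 TPM at 8 h (0.31 ± 0.12, limma adjusted p = 0.39). Nrf1, the other factor known to bind promoters of respiratory genes, was at 25.8 and 23.2 TPM at 1 h and 35.2, 29.1 and 26.3 TPM at 8 h (0.29 ± 0.15, limma adjusted p = 0.453). Ppargc1a, the coactivator PGC-1alpha, was at 22.7 and 20.1 TPM at 1 h and 29.3, 23.3 and 27.7 TPM at 8 h (0.31 ± 0.14, limma adjusted p = 0.422). All 3 were higher in every 8 h library than in both 1 h libraries, without passing the test. Of the 15 regulators, 7 were higher and 1 lower in every 8 h library, beside 23.7% and 9.43% of all genes. Esrra, a nuclear receptor that works with PGC-1alpha, was at 49.9 and 47.5 TPM, then 68.8, 45.7 and 52.0 TPM. Tfam, which packages and transcribes mitochondrial DNA, was at 28.3 and 24.2 TPM, then 31.9, 27.0 and 34.7 TPM. The times overlapped for Esrra and Tfam.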

How the data were processed

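The samples were grouped by the time in their labels: 2 libraries at 1 h and 3 at 8 h of sham exposure. Per the study's methods, RNA was poly-A selected, prepared with a stranded TruSeq kit, sequenced in pairs and aligned to GRCm38, and the submitters' processing notes name bcl2fastq 2.19.1.403, CASAVA and DESeq2. The authors deposited, for each library, TPM, FPKM and coverage per gene, and for the series a table of whole-number counts for 7599 genes. The deposited TPM were summed per gene identifier, since 15 to 20 entries per table repeated a gene. Coverage, the deposited signal of mean reads per base, was used for a few isoforms only, and the deposited FPKM values were not used. No value column was left without a sample (0).

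Genes with a mean of at least 1 TPM (13870) were tested with limma 3.58.1 (trend) on log2(TPM + 1), so fold changes understate those of low genes. The deposited counts were tested with edgeR 4.0.16 (quasi-likelihood, TMM, filterByExpr), and with DESeq2 1.42.0 and limma-voom as alternatives, in R 4.3.3. Calls were made at an adjusted p at most 0.05 with a change of more than 1 log2 unit. Named were the 2 most abundant members of complexes I, III, IV and V, all of complex II, up to 5 members per direction with the largest fold change at a mean of at least 5 TPM, the isoform sets, any member called, and a fixed set of regulators and left-out subunits. Members and lists were chosen with earlier results of these data known. Pseudogene matches were found with blastn 2.17.0 in GENCODE vM21, where 53 of 84 members had the same coordinates as in the deposited tables, and printed coordinates are those of the tables. Errors are standard errors from limma unless marked, and p-values measure only the spread between these cultures. The values of 1 gene are not reported here.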

Additional observations from a re-analysis of the deposited data

How the results depend on the processing

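Of 271 values recomputed under alternatives for 24 results, 241 kept their direction and their side of the threshold or moved by less than the spread between replicates, 24 moved further, 5 reversed and 1 newly passed the test. The number of members called from TPM was 0 with each library left out except 8 h replicate 14, without which it was 1 (Cox6b2, log2 fold change 1.67), and the count table gave 0 in each fit run. Fits on counts that leave out a column or use the series follow column labels that the 3 columns at 8 h did not match in the abundance tables, so they do not repeat the TPM settings. The median log2 fold change of complex V was -0.0248 over all 5 libraries. With 1 library left out in turn, it ran from -0.0665 (without 8 h replicate 13) to 0.0248 (without 8 h replicate 14). Median-ratio scaling shifted all genes by -0.11. It gave medians of -0.104 for all members and -0.131, -0.0509, -0.0872, -0.0751 and -0.139 for complexes I to V, and log2 ratios of the summed TPM of -0.129, -0.0199, -0.103, -0.103 and -0.0988. Within series 1, and with series as a term, the medians of complexes III and V were -0.0965 and -0.0739, and the count-table median, by these column labels, was 0.0626 and 0.0632. The log2 ratios of the sums within series 1 were -0.00779 for complex II, -0.0861 for III, -0.121 for IV and -0.0703 for V. Without mitochondrially encoded genes the median of complex V was -0.0766. Cox5a (-0.0191) and Ndufv3 (-0.137) reversed within series 1 and with series as a term. These settings give the same log2 fold changes from TPM, so each of these reversals was counted under both. Atp5j2, at -0.416 to 0.00863 with each library left out in turn, reversed without 1 h replicate 2. The cause was not tested. No paired analysis was possible because the 1 h and 8 h groups share no replicate number. With 2 and 3 libraries, an absence of calls does not show equal levels, and members with few reads, such as Cox6a2, could not be compared at this depth.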

Other observations

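Lists of other mitochondrial and ribosomal genes were read against the median log2 fold change of all genes, 0.10, and limma called no gene in any of them. At an unadjusted p under 0.05 (limma), 9.52% of all genes were higher and 2.82% lower at 8 h. The 17 genes of the tricarboxylic acid cycle had a median log2 fold change of 0.17, with 1 gene higher and 0 lower at an unadjusted p under 0.05. Their sums were 3937 and 3950 TPM at 1 h and 4632, 3960 and 4457 TPM at 8 h, so replicate 14 was close to the 1 h libraries. The 20 genes of mitochondrial protein import had a median of 0.15 (3 higher, 0 lower), with sums of 3293 and 2986 TPM at 1 h and 3621, 3434 and 3707 TPM at 8 h. The 77 mitochondrial ribosomal proteins had a median of 0.10 (6 higher, 0 lower). The 97 tested cytosolic ribosomal proteins had a median of -0.10 (0 higher, 6 lower), and their sums were 98667 and 99396 TPM at 1 h and 90037, 99230 and 85589 TPM at 8 h. In series 1 alone the medians were 0.01 for the tricarboxylic acid cycle, 0.08 for import, 0.03 for the mitochondrial ribosome and 0.03 for the cytosolic ribosome. Median-ratio scaling, which moved all genes by -0.11, was not applied to these lists.

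Among the pseudogene entries that the naming rule left out, Atp5l2-ps was measured at 11.5 and 14.6 TPM at 1 h and at 11.5, 12.5 and 13.8 TPM at 8 h, and Atp5l-ps1 at 1.77 to 3.16 TPM.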
